A study of Mus musculus with 8 samples.

Results

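The 27 genes described here make cholesterol, set how much of it is made, or move and store it inside the cell. They were chosen by name, as the rows of the deposited table whose gene symbol is on a list ordered along the pathway, and all 27 were found among its 34432 rows. All of them were expressed highly enough to be tested (10 or more in 4 or more libraries), as were 11675 rows in all. RNA was sequenced from untreated (M0) mouse bone marrow-derived macrophages, which are macrophages grown in culture from marrow precursors, on day 7 of differentiation. The control group, labelled VAV-cre, has 4 libraries and carries the Cre recombinase. The double knockout group also has 4 libraries and has the genotype Cdk8 flox/flox Vav-iCre Cdk19null, in which Cdk19 is null and the floxed Cdk8 is left to be cut by Cre. Both groups thus carry Cre, driven by the promoter of Vav, which is active in blood-forming cells. The kinases CDK8 and CDK19 are paralogues that belong to Mediator, the complex between transcription factors and RNA polymerase II. Strain, age, sex and whether replicates came from separate animals are not given in the labels, so p-values measure only the spread between these libraries, which may be technical.

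Cholesterol is built from acetyl-CoA through mevalonate, isoprenoid units, squalene and lanosterol. The transcription factor SREBP2, the product of Srebf2, raises transcription of most of these enzymes when the membrane of the endoplasmic reticulum is poor in sterol: SCAP carries it to the Golgi to be cleaved, and the INSIG proteins hold the complex back when sterol is plentiful. Macrophages also take in cholesterol with lipoproteins and cell debris. Acid lipase frees it from esters in the lysosome, NPC2 and NPC1 pass it out of the lysosome, and SOAT1 turns it back into esters for storage.

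SREBP proteins bind sterol regulatory elements (SREs) and often act with NF-Y, which binds the CCAAT box. Promoter windows, from 250 bases before to 50 bases after an annotated start, were found in a RefSeq table (build GRCm38.p6) for 22 of the 27 genes, with 28 windows in all. Fdps, Fdft1, Sqle, Stard4 and Npc1 had no entry. The windows were searched on both strands for TCACNCCA (the core of an SRE), CCAAT (the NF-Y box), CACGTG (the E-box) and CCGCCC (the GC box); no SRE core in the members' windows overlapped another motif. Promoters are shown 5′ to 3′ on the gene's strand, with SRE cores and CCAAT boxes (ATTGG on the reverse strand) in capitals. Hmgcs1 (chr13:119690101-119690400, plus strand), Cyp51 (chr5:4104648-4104947, minus strand) and Npc2 (chr12:84773063-84773362, minus strand) are shown because they had the smallest adjusted p-values among the genes with an entry. Msmo1 (chr8:64733529-64733828, minus strand) and Srebf2 (chr15:82147019-82147318, plus strand) are shown because they are the other members with an SRE core. Acat2 (chr17:12960676-12960975, minus strand), an early enzyme that was not called, has neither an SRE core nor a CCAAT box. The windows of Ebp and Lipa, which were also not called, do hold a CCAAT box. The downstream start of Pmvk (chr3:89459321-89459620, plus strand) has none of the 4 motifs.
Hmgcs1: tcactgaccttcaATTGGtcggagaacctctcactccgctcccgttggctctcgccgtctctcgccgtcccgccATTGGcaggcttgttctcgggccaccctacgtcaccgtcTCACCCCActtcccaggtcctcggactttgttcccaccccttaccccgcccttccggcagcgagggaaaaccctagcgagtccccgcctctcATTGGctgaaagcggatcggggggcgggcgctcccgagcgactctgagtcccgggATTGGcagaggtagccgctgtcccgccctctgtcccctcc
Cyp51: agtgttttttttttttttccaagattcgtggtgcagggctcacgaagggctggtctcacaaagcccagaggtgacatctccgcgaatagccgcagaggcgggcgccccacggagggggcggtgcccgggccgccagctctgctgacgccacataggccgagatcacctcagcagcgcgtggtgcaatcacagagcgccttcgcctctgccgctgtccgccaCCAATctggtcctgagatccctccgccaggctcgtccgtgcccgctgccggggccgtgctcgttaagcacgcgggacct
Npc2: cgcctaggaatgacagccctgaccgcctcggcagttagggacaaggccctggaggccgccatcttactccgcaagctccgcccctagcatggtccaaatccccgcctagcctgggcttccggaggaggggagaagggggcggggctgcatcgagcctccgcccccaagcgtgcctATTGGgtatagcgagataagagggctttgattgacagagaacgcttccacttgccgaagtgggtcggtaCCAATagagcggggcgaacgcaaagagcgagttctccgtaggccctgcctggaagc
Msmo1: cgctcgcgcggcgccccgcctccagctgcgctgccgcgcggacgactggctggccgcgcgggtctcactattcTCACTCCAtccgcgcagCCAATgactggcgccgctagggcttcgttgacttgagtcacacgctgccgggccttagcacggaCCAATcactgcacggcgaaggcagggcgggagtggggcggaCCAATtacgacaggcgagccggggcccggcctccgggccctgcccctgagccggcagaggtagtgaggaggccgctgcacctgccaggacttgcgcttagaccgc
Srebf2: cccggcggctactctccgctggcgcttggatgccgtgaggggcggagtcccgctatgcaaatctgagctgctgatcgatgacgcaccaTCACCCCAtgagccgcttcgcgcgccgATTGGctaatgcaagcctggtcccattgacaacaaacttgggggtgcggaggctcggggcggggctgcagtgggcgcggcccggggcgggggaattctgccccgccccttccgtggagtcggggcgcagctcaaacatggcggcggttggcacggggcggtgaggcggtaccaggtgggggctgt
Acat2: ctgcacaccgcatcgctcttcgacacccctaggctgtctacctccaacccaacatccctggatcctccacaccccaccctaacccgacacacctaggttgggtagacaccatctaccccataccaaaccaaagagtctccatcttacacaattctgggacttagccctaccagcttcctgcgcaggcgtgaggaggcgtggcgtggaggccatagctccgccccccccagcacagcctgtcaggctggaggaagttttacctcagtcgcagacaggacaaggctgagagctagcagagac
Pmvk, downstream start: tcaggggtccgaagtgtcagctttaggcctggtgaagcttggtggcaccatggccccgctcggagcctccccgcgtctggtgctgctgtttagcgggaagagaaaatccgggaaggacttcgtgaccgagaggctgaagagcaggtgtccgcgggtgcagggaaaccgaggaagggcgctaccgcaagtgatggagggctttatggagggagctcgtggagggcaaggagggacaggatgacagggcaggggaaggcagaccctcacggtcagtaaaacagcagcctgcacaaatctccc

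A CCAAT box was present in 20 of the 28 windows (71.4%), against 37.4% of all 32851 windows of the table and 37.9% of the 11694 windows of tested genes. By gene, 20 of 22 members (90.9%) had a CCAAT box in at least 1 window, against 43.2% of the 9183 tested genes with an entry, and the exceptions were Acat2 and Scap. The 41 CCAAT boxes lay mostly close to the start, with 26 of them in the 100 bases before it, and 11 genes had 2 or more. Position and number per gene were not counted in the windows of other genes. The SRE core was found in 3 windows (10.7%), those of Hmgcs1, Msmo1 and Srebf2, against 4.36% of all windows and 3.76% of those of tested genes. An E-box was found in 21.4% of members' windows (10.1% for tested genes) and a GC box in 85.7% (62.2% for tested genes). These matches describe letters in these windows and say nothing of binding.

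**Figure D1:**
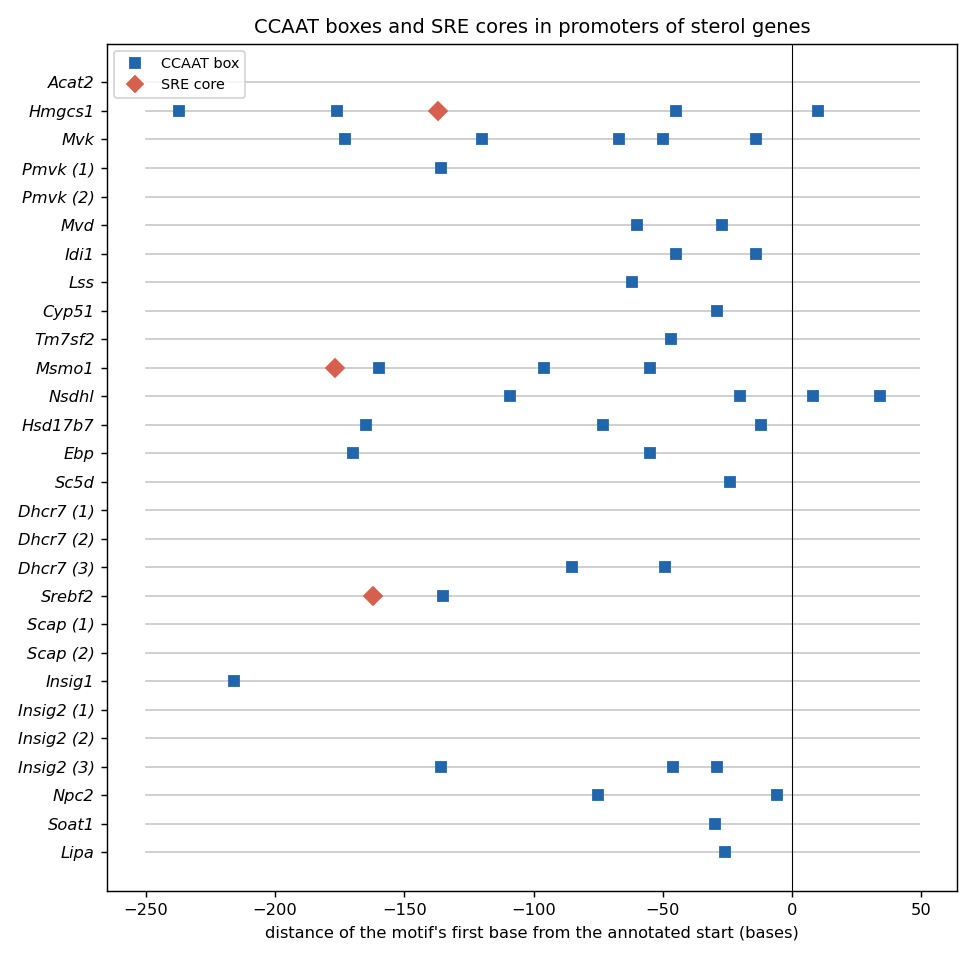
Position of each CCAAT box (squares) and SRE core (diamonds) in the promoter windows of the 22 genes with an entry, as the distance in bases of the motif's first base from the annotated start at 0, with upstream to the left and 1 line per window. Most CCAAT boxes (26 of 41) sit within 100 bases upstream of the start, and the SRE core appears in 3 windows.

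The libraries held 17856715 to 21353207 reads, and depth did not separate the groups (exact two-sided permutation p = 0.171). Cdk19 fell from 1452 ± 189 to 373 ± 25.8 normalised reads (SD, n = 4 each), to 25.7% of control, with an exact permutation p of 0.0286, the smallest that 4 against 4 allows. Cdk8 averaged 439 ± 24.5 in the 4 controls against 347 ± 60.8 in the 4 double knockouts, with groups that overlapped (exact permutation p = 0.0571). Its adjusted p in limma was 0.0374 and missed the threshold under most alternatives, reaching 0.104 without double knockout 4. The deleted exons are not given in the labels, so reads outside them cannot check the Cdk8 deletion. Double knockout libraries 1 and 2 resembled each other, as did 3 and 4, and the mitochondrial share of reads was 2.60% and 2.98% in the first pair against 4.27% and 4.19% in the second. By chi-square per gene of the read counts, controls 1 and 4 (38.2) differed more than any pair of double knockouts (at most 26.4). Independence of the libraries is not known.

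Expression of the cholesterol pathway was higher in the double knockout macrophages, most of all at the early steps. Of the 27 genes, 21 rose, none fell and 6 were not called (Acat2, Ebp, Scap, Stard4, Npc1 and Lipa), by limma at an adjusted p under 0.05. Over all genes tested, 22.9% were called higher and 23.8% lower. At an unadjusted p under 0.05 the members' counts were 21 higher and 0 lower, and edgeR and DESeq2 on recovered reads also called 0 lower. The median log2 fold change of the members was 0.59, against 0.01 for all genes tested. Changes of at least 2-fold upward were seen in 5 members (18.5%: Mvd, Fdps, Fdft1, Idi1 and Hmgcs1), against 4.35% of all genes tested. All 4 double knockouts lay above all 4 controls in 19 members, where 21.2% of all genes tested did so, and no member had its groups apart in the other direction, where 21.7% of all genes did. In bulk RNA, a change in the mix of cells and a change in the RNA per cell cannot be told apart.

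**Figure D2:**
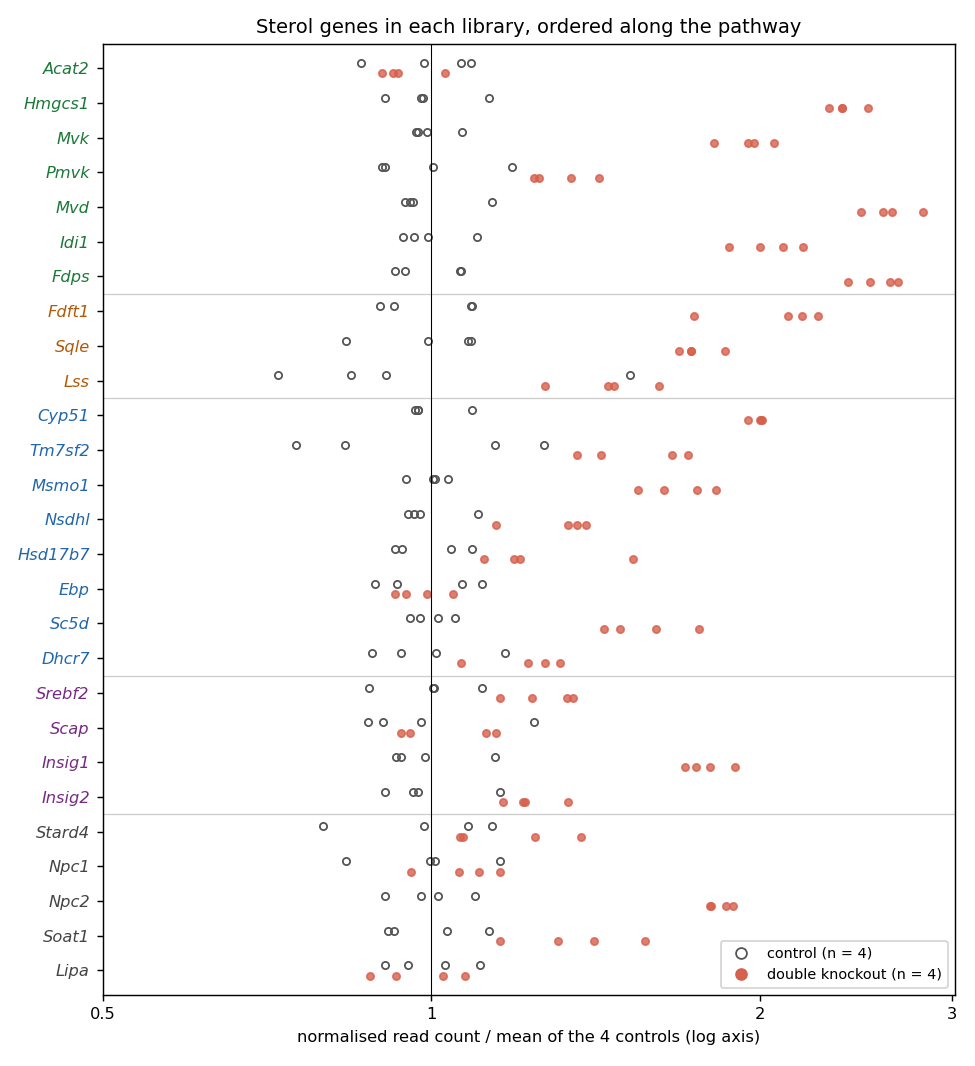
Normalised read count of each gene in each of the 8 libraries, divided by the mean of its 4 controls (log axis), for controls (open circles) and double knockouts (filled circles), ordered along the pathway from top to bottom. The double knockouts lie to the right of every control in 19 of 27 genes, and the early enzymes Hmgcs1, Mvd and Fdps lie farthest out.

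The summed level of the 18 synthesis enzymes was 9595, 9576, 9798 and 9573 normalised reads in the controls and 16134, 16767, 17021 and 17287 in the double knockouts. The lowest double knockout was far above the highest control, and the ratio of the means was 1.74. Among these enzymes 16 rose and 2 were not called. The median log2 fold change decreased along the roles, from 1.03 for the 7 early mevalonate genes to 0.81 for the 3 squalene and lanosterol steps, 0.52 for the 8 steps after lanosterol, 0.33 for the 4 genes of SREBP2 control and 0.25 for the 5 of trafficking and storage. This order is a description of 27 chosen genes and was not tested.

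The early part of the pathway turns acetyl-CoA into farnesyl pyrophosphate, and 6 of its 7 genes rose. Hmgcs1, the synthase that makes HMG-CoA, had 798, 865, 994 and 860.2 normalised reads in the controls and 2036, 2094, 2092 and 2210.2 in the double knockouts. The groups were well apart, with every double knockout more than any control. The log2 fold change was 1.26 (standard error 0.08, adjusted p = 1.05e-07 in limma). Fdps, which makes farnesyl pyrophosphate, had 782, 780.2, 695 and 681 in controls and 1852, 1770.0, 1934 and 1966 in double knockouts, again without overlap. It had the smallest adjusted p of the 27 genes, at a log2 fold change of 1.36 (standard error 0.08, adjusted p = 4.83e-08 in limma).

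Mvd, the decarboxylase that yields isopentenyl pyrophosphate, had the largest change of the 27 genes. It was read 118, 140.2, 119 and 117 times (normalised) in controls and 326, 306, 320.1 and 348 times in double knockouts. Control 2 stood above the other controls, but the groups were far apart, with a log2 fold change of 1.39 (standard error 0.12, adjusted p = 2.13e-06 in limma). Idi1, the isomerase that follows, had 797, 773, 756 and 884 in controls and 1504, 1606, 1685 and 1759 in double knockouts. The difference was 1.03 on the log2 scale (standard error 0.08, adjusted p = 7.54e-07 in limma), with no overlap.

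Both kinases of the pathway rose, by unequal amounts. Mvk, mevalonate kinase, went from 295, 302, 296 and 325 in controls to 594, 553, 627 and 601 in double knockouts, a log2 fold change of 0.96 (standard error 0.09, adjusted p = 3.95e-06 in limma). Pmvk, which adds the next phosphate, had 333, 253, 282 and 255 in controls and 349, 377, 400.1 and 353 in double knockouts. Control 1 came close to the lowest double knockout, and the log2 fold change was 0.40 (standard error 0.12, adjusted p = 0.0142 in limma). With double knockouts 1 and 2, and 3 and 4, averaged into 2 values, Pmvk lost its call (adjusted p = 0.0597 in limma).

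Acat2, the cytosolic thiolase that joins acetyl-CoA units, was the early gene that was not called. Its values were 364, 393, 402 and 318 in controls and 341, 333, 380.1 and 344 in double knockouts, fully overlapping. The log2 fold change was -0.08, with a 95% interval from -0.31 to 0.16. Its transcript is 97.7% identical over 1477 bases to that of Acat3, listed at a mean of 1.53 in controls, and shares sequence with Tcp1 (5065 in controls, 3749 in double knockouts), so its value is uncertain. Fdps and Idi1 have near-identical pseudogene copies, which were at or near 0 wherever the table lists them.

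The 3 enzymes that commit carbon to sterols all rose. Fdft1, squalene synthase, had 451, 451, 372 and 383 in controls and 721, 878, 906 and 936 in double knockouts, with double knockout 1 the lowest of its group and still far above the controls. The log2 fold change of Fdft1 was 1.05 (standard error 0.11, adjusted p = 1.02e-05 in limma). Exons of Fdft1 overlap those of Ctsb, a lysosomal cathepsin on the opposite strand, over 774 bases. Ctsb was far more abundant, at 212188 in controls and 293671 in double knockouts, and whether reads were counted by strand was not stated. Ctsb was itself called higher (log2 fold change 0.47, adjusted p = 0.00211 in limma). Ctsb was highest in double knockouts 1 and 2, whereas Fdft1 was highest in 3 and 4. The part of Ctsb reads in the value of Fdft1 was not tested.

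Sqle, the squalene epoxidase, had 439, 522, 572 and 568 in controls and 977, 887, 908 and 908 in double knockouts. Control 1 was the lowest library, and the groups did not overlap (log2 fold change 0.81, standard error 0.10, adjusted p = 3.23e-05 in limma). Lss, which closes the rings to lanosterol, had 249, 312, 523 and 290.3 in controls and 437, 499, 555 and 505 in double knockouts. Control 3 exceeded 3 of the double knockouts, so the groups overlapped. Lss had a log2 fold change of 0.59 (standard error 0.19, adjusted p = 0.0271 in limma), and the call was lost under 8 of 17 alternatives, including without control 1, 2 or 4 and without double knockout 2, 3 or 4, with adjusted p reaching 0.103.

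After lanosterol, 7 of 8 enzymes rose. Cyp51, the lanosterol demethylase, rose most among them, with 841, 746, 751 and 751 in controls and 1507, 1549, 1553 and 1548 in double knockouts. Its exons overlap those of Akap9, which was not called, on the opposite strand. Spread within the groups was small, and the log2 fold change was 0.995 (standard error 0.07, adjusted p = 3.11e-07 in limma). Msmo1, which starts the removal of further methyl groups from the ring, had 1484, 1359, 1445 and 1439 in controls and 2214, 2342, 2509 and 2612 in double knockouts. Its groups were apart by 0.75 on the log2 scale (standard error 0.07, adjusted p = 3.42e-06 in limma).

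Sc5d, the desaturase near the end of the route, had 443, 452, 469 and 487 in controls and 745, 815, 666 and 689 in double knockouts. It rose by 0.65 on the log2 scale (standard error 0.09, adjusted p = 0.000108 in limma), with no overlap. Tm7sf2, one of the sterol reductases, spread widely in controls, from 112 to 189, and lay between 202 and 255 in double knockouts. The log2 fold change was 0.65 (adjusted p = 0.0114 in limma), and 0.0559 was the adjusted p with the double knockouts averaged in pairs. Its exons overlap those of Vps51 on the same strand, and Vps51 was not called (log2 fold change 0.20, adjusted p = 0.181 in limma).

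The remaining sterol steps moved little. Nsdhl, a dehydrogenase of the demethylation, lay between 311 and 361 in controls and between 374 and 453 in double knockouts (log2 fold change 0.38, adjusted p = 0.00928 in limma). Hsd17b7, the ketoreductase of the same steps, lay between 295 and 347 against 356 and 487, with double knockout 2 the highest library. Its log2 fold change of 0.33 was near the threshold (adjusted p = 0.0411 in limma), fell to 0.23 without double knockout 2 (adjusted p = 0.119) and was not called under 8 of 17 alternatives. Dhcr7, which reduces 7-dehydrocholesterol to cholesterol, overlapped between groups, from 537 to 709.7 in controls and 647 to 798 in double knockouts. Its log2 fold change was 0.29 (adjusted p = 0.0410 in limma), and it was not called under 10 of 17 alternatives, including without any 1 of control 1, 2 or 3 or double knockout 1, 2 or 4.

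Ebp, the sterol isomerase, was not called. It had 843, 879, 735 and 701 in controls and 731, 827, 782 and 748 in double knockouts. The controls spanned the whole range of the double knockouts, and the log2 fold change was -0.03, with a 95% interval from -0.23 to 0.17.

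**Figure D3:**
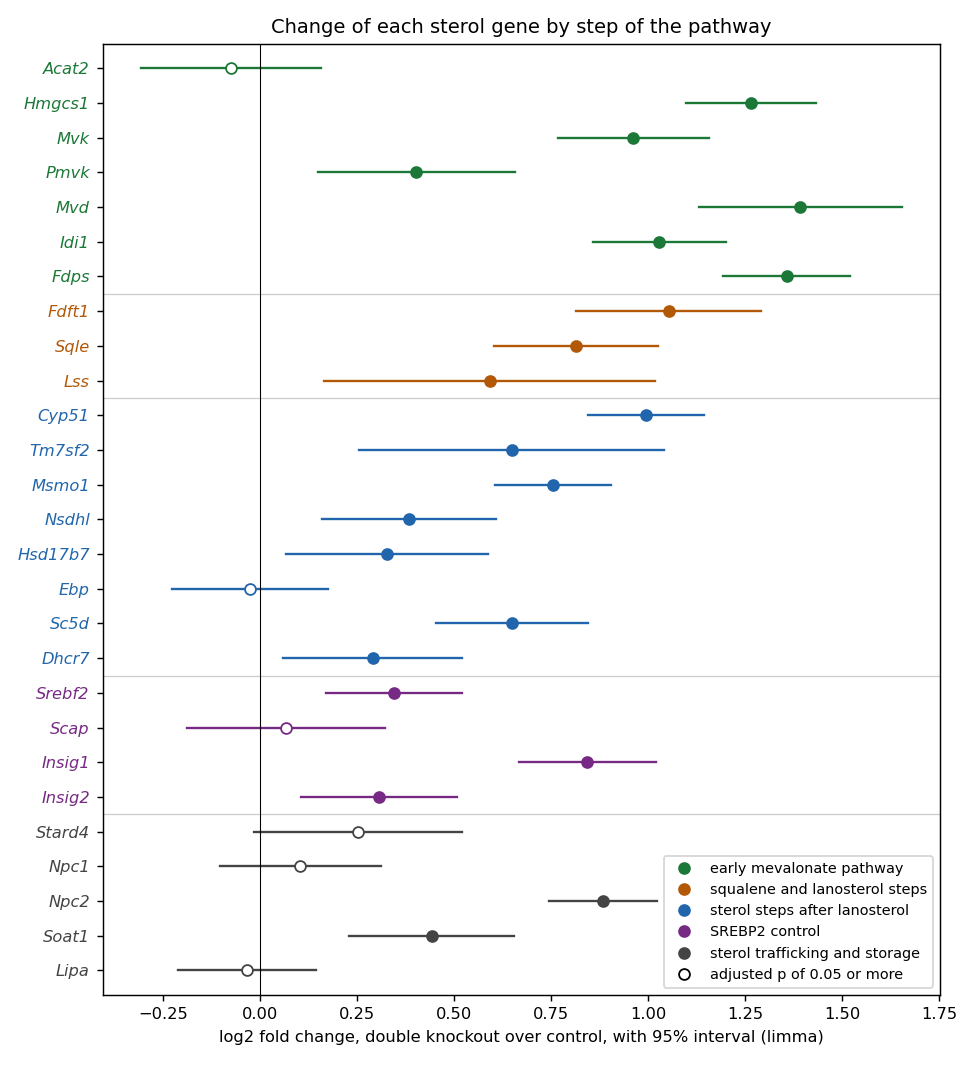
Log2 fold change of each gene, double knockout over control, with its 95% interval from limma, coloured and ordered by role in the pathway. Early mevalonate genes reach 1.39 (Mvd), and the 6 genes that were not called have intervals that include 0.

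Of the 4 genes that control SREBP2, 3 rose. Insig1, which retains SCAP in the endoplasmic reticulum and is itself a known SREBP target, had 833, 886, 841 and 1026 in controls and 1703, 1569, 1614 and 1533 in double knockouts. The groups were far apart, with a log2 fold change of 0.84 (standard error 0.08, adjusted p = 5.46e-06 in limma). Insig2, its paralogue, had 649.6, 781, 613 and 657 in controls and 901, 786, 819 and 822 in double knockouts. Control 2 came close to the lowest double knockout, and the log2 fold change was 0.31 (standard error 0.09, adjusted p = 0.0173 in limma). The call for Insig2 was lost without double knockout 1 (adjusted p = 0.0525), without control 3 (0.0575) and with double knockouts averaged in pairs (0.0689).

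Srebf2, which encodes SREBP2, had 2132, 2438, 2442 and 2702 in controls and 3233, 3274, 2809.9 and 3005 in double knockouts. The groups did not overlap, though control 4 lay near double knockout 3, and the log2 fold change was 0.35 (standard error 0.08, adjusted p = 0.00415 in limma). Scap, the escort protein, overlapped fully, from 872 to 1237 in controls and 933 to 1141 in double knockouts, with a log2 fold change of 0.07 (95% interval -0.19 to 0.32). The files measure RNA, so cleavage of SREBP2 was not measured.

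Trafficking and storage genes were divided, with 2 of 5 higher. Npc2, the soluble sterol carrier of the lysosome, had 23913, 22123, 21333 and 19775 in controls and 40605, 39273, 41212 and 39313 in double knockouts. Every double knockout was far above every control, at a log2 fold change of 0.88 (standard error 0.06, adjusted p = 4.77e-07 in limma). Npc1, the membrane protein that receives sterol from NPC2, had 2968, 3542, 3578 and 4106 in controls and 3924, 4102, 3398 and 3764 in double knockouts. Its groups overlapped, and the log2 fold change was 0.10, with a 95% interval from -0.10 to 0.31. That interval lies below the interval of Npc2, 0.74 to 1.02, though the difference between the 2 genes was not itself tested.

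Soat1, which esterifies cholesterol for storage, had 3999, 3948, 4472 and 4887 in controls and 6106, 6789, 5009 and 5655 in double knockouts. Double knockout 3 was just above control 4, and the log2 fold change was 0.44 (standard error 0.10, adjusted p = 0.00304 in limma). Lipa, the lysosomal acid lipase that frees cholesterol from esters, had 24240.3, 25438, 27513 and 29605 in controls and 27355, 28696, 23468 and 24798 in double knockouts. The groups overlapped, at a log2 fold change of -0.03 (95% interval -0.21 to 0.14).

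Stard4, a soluble sterol carrier of the cytosol, had 630.0, 780.2, 854 and 901 in controls and 985, 1085, 847 and 841 in double knockouts. Double knockouts 1 and 2 lay above all controls, and 3 and 4 lay within them. The log2 fold change was 0.25 (95% interval -0.02 to 0.52, adjusted p = 0.113 in limma).

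Levels between genes were compared per kilobase of merged exons, from a GENCODE annotation of mouse build mm10. Npc2 (4006 normalised reads per kilobase in controls, 7374 in double knockouts) and Lipa (3938 and 3847) were the most abundant of the 27, far above Soat1 behind them (442 and 602). Lss (31.8 and 46.2) and Tm7sf2 (33.8 and 52.1) were the lowest 2. Much of the order between depends on the length used. Among the synthesis enzymes Ebp was highest per kilobase of merged exons in controls (342), ahead of Msmo1 (233), but per kilobase of the longest transcript Msmo1 (482) came before Ebp (453). In double knockouts Idi1 (467), Hmgcs1 (459) and Fdps (447) led the enzymes by merged exons, and Msmo1 (815) led them by longest transcript, ahead of Fdps (637), Hmgcs1 (608) and Idi1 (541). By longest transcript Lipa also came before Npc2 in the controls, Npc1 (616) before Soat1 (517), and Tm7sf2 (48.2) was below Lss (49.1).

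**Figure D4:**
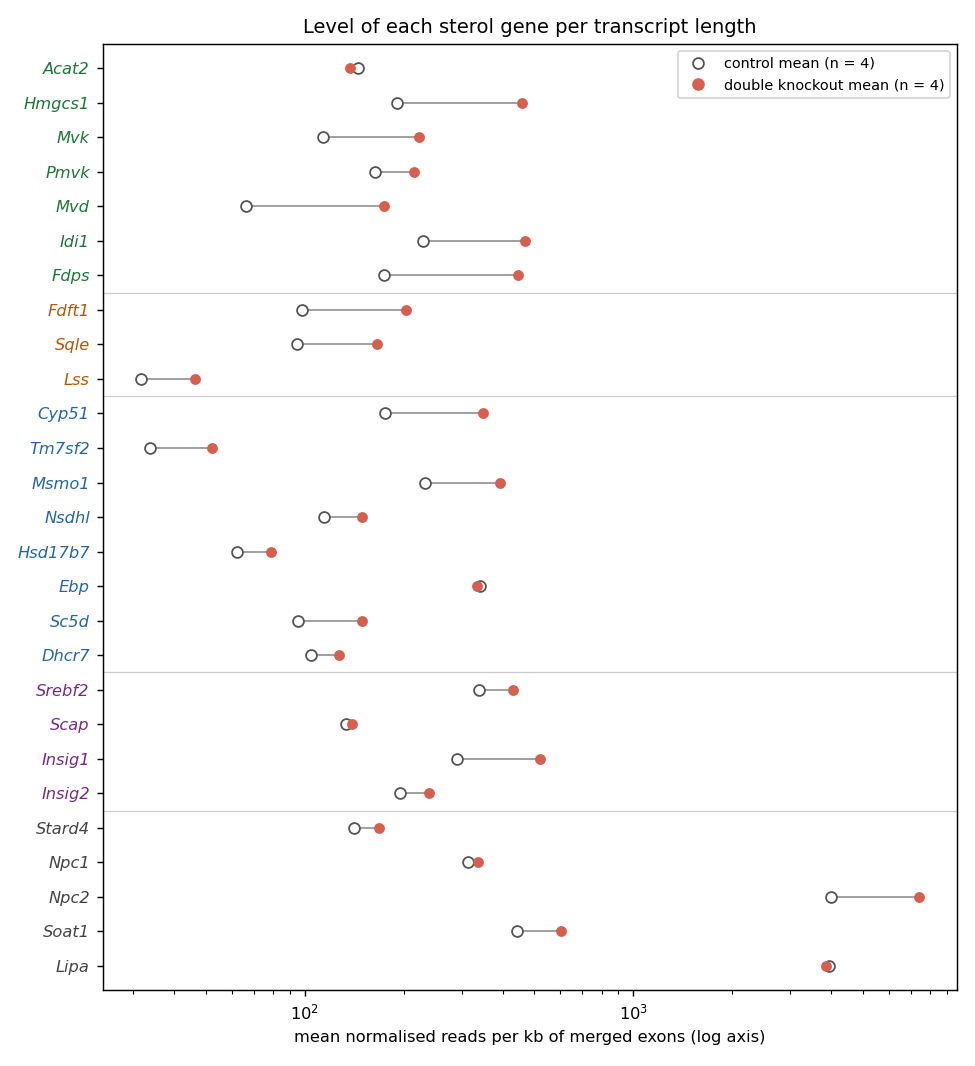
Mean level of each gene in normalised reads per kilobase of merged exons (log axis), in controls and double knockouts (n = 4 each), coloured and ordered by role. Npc2 and Lipa lie near 4006 and 3938 in controls, and Lss is lowest at 31.8.

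Within groups the members did not move as 1 block. Double knockouts 1 and 2 both lay above 3 and 4 in 8 members (29.6%, against 22.1% of all genes tested), and both lay below in 8 others (29.6%, against 23.9%). The first set was Sc5d, Dhcr7, Srebf2, Scap, Stard4, Npc1, Soat1 and Lipa, and the second Acat2, Mvk, Idi1, Fdps, Fdft1, Lss, Tm7sf2 and Msmo1. The early mevalonate genes gave 4 of the second set and none of the first, and trafficking genes gave 4 of the first and none of the second. The sets also differed in length. Merged exons ran from 4866 (Sc5d) to 11317 bases (Npc1) in the first set. In the second they ran from 2544 (Acat2) to 4403 (Tm7sf2), apart from Msmo1 (6144) and Lss (10787). Role and length cannot be told apart here. In the controls, library 4 was highest and library 1 lowest in 8 members (29.6%, against 15.3% of all genes tested): Mvk, Sc5d, Srebf2, Scap, Insig1, Stard4, Npc1 and Lipa. The opposite order, library 1 highest and library 4 lowest, was seen in 2 members (7.41%, against 16.6% of all genes tested), Fdps and Npc2. These counts were read after seeing the values and have no test.

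**Figure D5:**
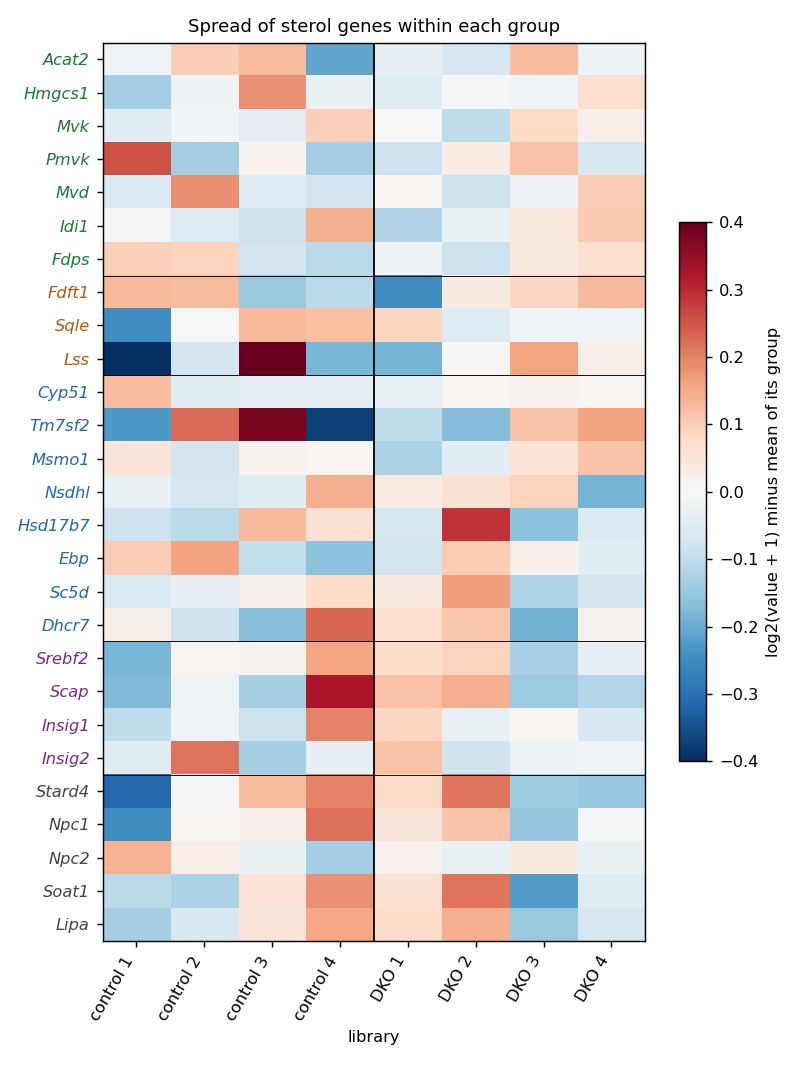
Deviation of log2(value + 1) from the mean of its own group for each gene (rows) in each library (columns), with colours limited to 0.4 on either side of 0, so that larger deviations share the end colour. Lss and Tm7sf2 vary most among controls, and the trafficking genes at the bottom tend to be above their mean in double knockouts 1 and 2.

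Neighbouring genes of the same biology were called in both directions, and their counts are read against the 22.9% of all genes tested that were called higher and the 23.8% called lower. Of 16 other tested genes of the mevalonate and sterol pathways, 5 rose and 2 fell (median log2 fold change 0.06). Nus1, a subunit of the enzyme that makes dolichol precursors, rose by 0.31. Pdss1, which builds the tail of ubiquinone from the same isoprenoids, fell by 1.04 on the log2 scale, and Acat1, the mitochondrial thiolase, fell by 0.55.

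A further list, of genes taken as SREBP2 targets but including fatty acid desaturases, had 11 tested genes outside the members. Of these, 3 rose and 3 fell (median log2 fold change -0.19), near the shares of all genes called. Those counts do not describe SREBP2 targets alone. Aacs, which activates acetoacetate, rose by 0.44. The fatty acid desaturase Fads2 fell by 1.14 and Cdc42ep3, a CDC42 effector, by 0.56.

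Among 15 other genes of SREBP control, 3 rose and 3 fell (median log2 fold change 0.07), shares near those of all genes. Erlin1, a membrane protein of the endoplasmic reticulum that restrains SREBP activation, fell by 0.92 on the log2 scale, from 1391 ± 68.8 to 738 ± 94.4 normalised reads (SD, n = 4 each). The ubiquitin ligase genes Fbxw7 and Syvn1 rose by 0.49 and 0.38, and Rnf139 fell by 0.27. The call for Rnf139 was lost without double knockout 4 (adjusted p = 0.0638 in limma), without control 2 (0.0605) and without control 3 (0.0706). It was also lost with double knockouts averaged in pairs (0.0769). Srebf1, the paralogue of Srebf2, named after its values were seen, was not called (log2 fold change 0.07, adjusted p = 0.529 in limma). Of 27 other trafficking and storage genes, 12 rose and 5 fell (median 0.17), where 22.9% of all genes tested were called higher and 23.8% lower. Lamp1, a lysosomal membrane protein that binds cholesterol, rose by 0.68 and Laptm4b, another lysosomal membrane protein, by 1.89. Of the oxysterol-binding protein family, Osbp2 rose by 3.29 from a mean of only 7.39 normalised reads, and Osbpl3 fell by 1.52.

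Markers of cell state moved at the same time as the sterol genes. All 12 proliferation genes fell (median log2 fold change -2.82), among them Mki67 (log2 fold change -3.43), Rrm2 (-3.83), Ccnb1 (-3.001) and Top2a (-3.07). Their summed level was 40464 to 43857 in controls and 11873 to 12117 in double knockouts. Macrophage markers were abundant in every library (summed level 429117 to 459685 in controls and 390397 to 416511 in double knockouts), and of 15 there were 8 higher and 5 lower. Mertk and Cd68 rose by 1.08 and 0.57, and Lyz2 and Csf1r fell (log2 fold changes -0.73 and -0.80).

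Monocyte markers fell in 4 of 8, Ccr2 (log2 fold change -3.97), F13a1 (-3.74), Chil3 (-2.57) and Ms4a4c (-0.90), with summed levels of 5829 to 6447 in controls and 1762 to 2896 in double knockouts. Neutrophil markers fell in 7 of 8 tested, among them S100a9 (-2.41), Ltf (-2.63), Ngp (-2.10) and S100a8 (-1.89), with sums of 2099.6 to 3634 against 683 to 992. Of 8 lymphocyte markers only Cd8a could be tested and it was not called (log2 fold change 0.06). Cd3e and Cd3g were listed at 0 in all libraries, and the sums were 17.8 to 51.1 against 29.1 to 39.2. Of 6 stromal markers 2 could be tested: Col1a2 fell by 0.66 (adjusted p = 0.0450 in limma), a call lost under most alternatives, and Col1a1 was not called (log2 fold change -0.84) except without double knockout 1 (-1.27). The stromal sums were 229.97 to 279 in controls and 103 to 293 in double knockouts. The part of these shifts in the levels of the sterol genes was not tested.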

How the data were processed

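Polyadenylated RNA from 8 libraries was sequenced as pairs of 150 bases, per the labels' protocols. The submitters' processing notes name Salmon 1.4.0, DESeq2 and build mm10, with annotation release, gene-level import and strand not given in the sources used here. The deposited values are a signal, 1 normalised value per gene and library. Judged from the values, they are read counts divided by 1 factor per library: multiplying back gave 100% whole reads (tolerance 0.01) in each, at 17856715 to 21353207 reads.

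Groups follow the genotype labels. Genes reaching 10 in 4 or more libraries were tested on the log2(value + 1) scale by limma 3.58.1 (trend and robust, R 4.3.3), two-sided, genotype only. P-values were adjusted by Benjamini-Hochberg over all 11675 genes, with a threshold of 0.05. Fold changes are on this scale, which understates low genes. The alternatives were 2 other pseudocounts (0.5 and 5), no filter, no trend and robust options, quantile normalisation, the replicate number as a block, each library left out, the double knockouts averaged in pairs, and edgeR 4.0.16 and DESeq2 1.42.0 on recovered reads. Copies were searched with blastn 2.17.0 (at least 90% identity over 300 bases). The test was tried on simulated data.

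The members and lists were chosen with earlier results of these data known. From each other list up to 4 tested genes with the smallest adjusted p were named, with Cdk8 and Cdk19 always. Some genes that this rule takes are counted in their lists but not reported here. Srebf1 was added after its values were seen. Promoters shown were those with the smallest adjusted p that hold a motif and 1 without, and those of Msmo1, Srebf2 and Acat2 were added after the search.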

Additional observations from a re-analysis of the deposited data

Results flagged for a closer look

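In each of 54 groups of 4 (27 genes in controls and in double knockouts), the library farthest from the rest was compared with the spread of its group. In 4 groups 1 library stood apart by Dixon's criterion, where chance at 1 in 20 gives 2.7. Mvd was 140.2 in control 2 against 117 to 119 in the other controls. Cyp51 was 841 in control 1, with 746 to 751 in the others. Cyp51 was 1507 in double knockout 1, with 1548 to 1553 in the others. Nsdhl was 361 in control 4, with 311 to 319 in the others. Each of these 3 genes kept its call without the library that stood apart.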

How the results depend on the processing

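The number of the 27 genes called higher was 21 and stayed between 15 and 21 over 17 alternatives, and 0 were called lower under each of them. The lowest count, 15, came with double knockouts averaged in pairs. Leaving out 1 library gave 18 to 20, no filter 19, and edgeR and DESeq2 21 each. Same-numbered libraries did not deviate together (correlations of -0.05, 0.03, -0.04 and -0.04). Differently numbered libraries spanned a wider range, from -0.19 (control 1 with double knockout 2) to 0.15 (control 4 with double knockout 2). This check therefore cannot settle whether the libraries were paired. With the replicate block 19 members were called higher and 0 lower, at an unchanged median log2 fold change of 0.59. Of 459 combinations of a member and an alternative, 31 lost a call, 0 gained one and 5 changed sign. Of the 21 called members, 15 kept their call throughout, and the others were Pmvk, Lss, Tm7sf2, Hsd17b7, Dhcr7 and Insig2. Sign changes concerned genes with fold changes near 0, and none of them was called: Acat2 was 0.0060 with quantile normalisation, and when 1 library was left out Ebp was -0.082 to 0.0265, Lipa -0.0817 to 0.0169 and Cd8a -0.306 to 0.3064. Cd8a was -0.0319 with edgeR and -0.0253 with DESeq2. The cause of these changes was not tested. The lowest values behind a member were those of Tm7sf2 and Mvd, down to 112 and 117 normalised reads in the controls.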
